A study of Mus musculus with 6 samples.

Results

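The endothelial cells described here came from mice that lost Ccm3 (gene symbol Pdcd10) in endothelium shortly after birth, and were sampled at postnatal day 6 (P6) and postnatal day 10 (P10). They were chosen from 2 single-cell libraries, 1 for each day. A barcode was kept with at least 500 detected genes and at most 10% of its unique molecular identifiers (UMIs, the count of captured RNA molecules) on mitochondrial genes, and was called endothelial with a UMI of at least 3 of the 6 genes Pecam1, Cldn5, Cdh5, Flt1, Esam and Egfl7. By this rule 857 of 952 kept cells were endothelial at P6 and 3017 of 3105 at P10. These 3874 cells were part of the 14165 cells of 6 libraries that met the same rule. At the edge of the rule, 12 cells at P6 and 93 at P10 had exactly 3 of the 6 genes, and 18 and 44 kept cells had exactly 2 and were left out.

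The KO mice carried Mfsd2a-CreERT2 and Pdcd10fl/fl and received tamoxifen at P1, with harvest at P6 or at P10. Cre was expressed from Mfsd2a, a lipid transporter gene of brain endothelium, so recombination was limited to cells using that promoter. The comparison mice, WT, carried Mfsd2a-CreERT2 without the floxed allele and received the same tamoxifen with the same harvest days. They gave 1380 endothelial cells at P6 and 3540 at P10. The labels name no number of animals per library and no sorting gate. The sample labels give the tissue as retina, whereas the series title and design speak of brain. Retinal markers summed to 7.59 UMIs per 1000000 UMIs of the library's endothelial cells (CPM, a gene's share of the counted RNA) in KO endothelium at P6 and 4.78 CPM at P10, with UMIs of 5 of the 8 markers on each day. The photoreceptor gene Rcvrn had no UMI in either. The libraries of mice given vehicle or rapamycin were used only for the total above.

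Endothelial UMIs summed to 9883763 (KO P6), 23430633 (KO P10), 11456857 (WT P6) and 20739119 (WT P10). Median UMIs per endothelial cell were 9067, 6401, 6962 and 4871 in that order. Y-linked genes held 2 UMIs in KO at P6 (0.202 CPM) against 118 CPM in KO at P10 and 144 CPM in WT at P10, while Xist reached 965 CPM in WT at P6 and had 1 UMI in KO at P6. Harvest day therefore cannot be told apart from the expression of sex-linked genes, or from anything else in which single libraries differ. KO P6 and KO P10 shared 4 cell barcodes. Cells with UMIs of at least 3 markers of another cell type made up 18.8% of the KO endothelial cells at P6 and 9.58% at P10, and most of these carried pericyte markers (153 of 161 cells and 226 of 289). The 8 pericyte markers summed to 1122 CPM at P6 and 555 CPM at P10 in KO endothelium, and to 1140 and 1059 CPM in WT. Astrocyte markers summed to 103 and 115 CPM in KO endothelium, and 5 red cell genes to 2625 and 4455 CPM. Of 10 microglial and macrophage markers, 7 had no UMI in KO endothelium at P6, among them Cx3cr1, P2ry12 and C1qa. All 10 had UMIs at P10, where more endothelial UMIs were summed. The sum was 4.25 CPM at P6 and 8.66 CPM at P10, and 0 and 6 cells had UMIs of at least 3 of these markers. Of 8 markers of other leukocytes, Cd3e, Cd3d, Nkg7 and Trbc2 had no UMI on either day, and S100a8 and S100a9 had none at P6 only. The comparison was also made without cells with markers of another cell type, which left 696 KO cells at P6 and 2728 at P10. Some of its values are given below. The part of the remaining differences in the results below was not tested. Because levels are shares of the summed RNA of many cells, fewer cells of a type and less RNA per cell cannot be told apart in them.

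Pdcd10 encodes a small adaptor protein that works with Krit1 and Ccm2 to restrain MEKK3 signalling in endothelial cells. Its loss in endothelium of newborn mice gives cerebral cavernous malformations, leaky clusters of enlarged venous capillaries, and raises the transcription factors Klf2 and Klf4. Brain endothelium in the first postnatal weeks is also still growing: cells divide and sprout early, and barrier transporters and arterial and venous identity mature later. Interferon-stimulated genes are switched on when type I interferon activates a transcription factor complex that binds a short DNA element called the interferon-stimulated response element.

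Pdcd10 itself (minus strand of mm10 chromosome 3, from 75516490 to 75556856) was at 58.4 CPM (exact 95% Poisson interval 53.7 to 63.3) in KO at P6 and 58.2 CPM (55.1 to 61.3) at P10. It measured 104 and 102 CPM in WT. The level in KO was lower than in WT on both days and did not differ between the days beyond counting error. The deleted exons are not given in the labels, so it is not known whether the counted 3′ ends lie in the deleted part. These and all later intervals cover counting error only, because each group was a single library.

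To ask how KO endothelium differed between the days, UMIs were summed over its endothelial cells, and the log2 ratio of P10 over P6 was taken with a prior count of 2. With 1 library per day replicates cannot check the ratio, and it carries no p-value. A gene was measured if it reached 20 CPM and 30 UMIs in the library where it was higher, which 5894 genes did, and was counted as higher or lower at a ratio of at least 2-fold. Of these, 114 genes (1.93%) were higher at P10 and 108 (1.83%) were lower. The median log2 ratio of all measured genes was -0.04, with quartiles of -0.25 and 0.18. Most transcripts thus lay within a narrow band, and the changes past 2-fold were few. Interferon-related genes made up 30 of the 108 lower genes: they were on 3 interferon lists described below, and none of the 114 higher genes was. In WT, measured alike, 187 of 5838 genes (3.20%) were higher and 135 (2.31%) lower.

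**Figure D1:**
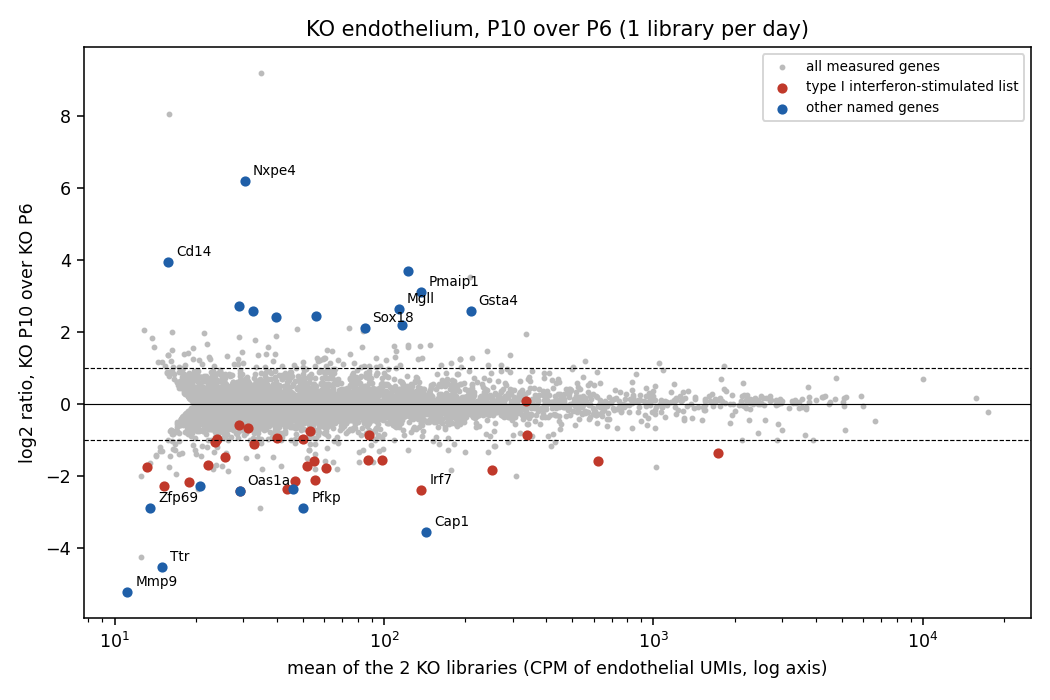
Log2 ratio of P10 over P6 in KO endothelium (vertical axis) against the mean level of the 2 KO libraries in CPM (horizontal log axis), 1 point for each of 5894 measured genes, with dashed lines at 2-fold. Red points are the 29 measured type I interferon-stimulated genes, 28 of which lie below 0, and blue points are the other named genes, from Nxpe4 at 6.19 to Mmp9 at -5.22.

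A test of harvest day was possible only across genotypes, with the KO and WT pairs as 2 replicates of the difference between days and genotype as a covariate (4 libraries, 1 residual degree of freedom). In edgeR's quasi-likelihood test with Benjamini-Hochberg adjustment, 677 of 13165 genes (5.14%) rose with day and 425 (3.23%) fell. This test favours what KO and WT shared, and a gene that moved in KO alone can add to its residual. It can still pass a gene on KO alone where WT holds few or no UMIs. Ttr, with no UMI in WT, passed (log2 fold change -4.58, edgeR adjusted p = 0.00493). Passing therefore does not by itself show a change in both genotypes. Of the genes past 2-fold in KO, 107 of the 114 higher (93.9%) and 65 of the 108 lower (60.2%) passed the test. Of all 5894 measured genes, 460 passed as higher at P10 and 284 as lower. The test includes the 2 KO libraries that picked the genes past 2-fold, so passing is no independent support for them. Without the genotype term it called 2 genes as risen and 1 as fallen, and with 1 library left out as well it called from 0 and 0 (without WT at P6) to 97 and 41 (without KO at P10). "Rose" and "fell" below are used only of genes that passed this test, with its adjusted p.

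Of the 30 gene lists examined, type I interferon-stimulated genes had the lowest median ratio in KO endothelium. Of 29 measured members of the type I list, 20 were at least 2-fold lower at P10, none was 2-fold higher, and 28 had a ratio below 0. The list's median log2 ratio was -1.55, against -0.04 for all measured genes and -0.45 for the same genes in WT. The 35 genes of the list present in the files summed to 6348 CPM in KO at P6 and 2607 CPM at P10. In WT the sum was 1181 CPM at P6 and 908 CPM at P10, so KO exceeded WT on both days.

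Many of these genes carry the letters of the response element close to their start. The window searched ran from 250 bases before to 50 bases after the RefSeq start site (GRCm38.p6), for GAAA, any 2 bases and GAAA again on both strands, with overlapping matches allowed. It was found in 14 of the 25 measured type I genes that have a window (56.0%), and in 3.99% of all 27025 genes with one. Some type I genes lower at P10, such as Irf7, had no match. The windows of 4 genes with a match, all at least 2-fold lower at P10 in KO, are shown. They are written 5′ to 3′ on the gene's own strand, with matches in capitals (TTTC, 2 bases and TTTC is the same element on the opposite strand). Isg15 lies at chr4:156200769-156201068 on the minus strand, Ifit3 at chr19:34583279-34583578 on the plus strand, Bst2 at chr8:71537423-71537722 on the minus strand and Oas1a at chr5:120907476-120907775 on the minus strand.
Isg15: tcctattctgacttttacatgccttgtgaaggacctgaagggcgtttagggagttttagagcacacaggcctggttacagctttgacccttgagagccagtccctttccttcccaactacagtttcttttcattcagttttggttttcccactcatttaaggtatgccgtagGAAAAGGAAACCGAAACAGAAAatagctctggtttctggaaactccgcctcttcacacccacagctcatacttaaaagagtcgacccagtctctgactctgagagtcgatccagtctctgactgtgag
Ifit3: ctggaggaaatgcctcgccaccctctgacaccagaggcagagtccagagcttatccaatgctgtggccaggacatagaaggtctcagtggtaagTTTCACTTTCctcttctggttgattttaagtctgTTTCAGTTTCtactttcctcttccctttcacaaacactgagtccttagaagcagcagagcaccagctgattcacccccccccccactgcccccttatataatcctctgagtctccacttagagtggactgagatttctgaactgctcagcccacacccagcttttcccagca
Bst2: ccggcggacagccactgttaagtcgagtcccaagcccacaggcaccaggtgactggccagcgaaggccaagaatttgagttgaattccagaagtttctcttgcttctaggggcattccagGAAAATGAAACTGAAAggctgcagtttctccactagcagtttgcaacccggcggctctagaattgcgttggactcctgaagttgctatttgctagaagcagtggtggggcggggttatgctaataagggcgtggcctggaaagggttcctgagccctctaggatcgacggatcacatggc
Oas1a: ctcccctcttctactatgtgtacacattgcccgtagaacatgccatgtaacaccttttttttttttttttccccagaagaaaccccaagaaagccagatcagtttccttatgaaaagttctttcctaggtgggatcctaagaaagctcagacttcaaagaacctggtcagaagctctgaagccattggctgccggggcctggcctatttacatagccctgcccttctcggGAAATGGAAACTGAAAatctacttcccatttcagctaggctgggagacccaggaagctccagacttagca
Isg15 held 3 overlapping matches, the first starting at base -78 from the start site, and the other windows held 2 each. The 14 type I genes with a match had a median log2 ratio of -1.20 and the 11 without one -1.53, with 8 genes at least 2-fold lower in both sets. The element was also found in 5 of 6 interferon-induced GTPases (83.3%), in 5 of 14 genes of the class I list (35.7%), in 15 of 79 genes lower at P10 (19.0%) and in 5 of 84 genes higher at P10 (5.95%). A match describes letters in a window and is no measure of binding.

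Isg15, a ubiquitin-like protein attached to target proteins, measured 394 CPM (382 to 407) in KO at P6, 110 CPM (106 to 115) in KO at P10, 28.8 CPM in WT at P6 and 21.1 CPM in WT at P10. Its log2 ratio was -1.84 in KO and -0.45 in WT. Irf7, the transcription factor that amplifies type I interferon production (mm10 chromosome 7, 141262706 to 141266481), measured 231 and 44.4 CPM in KO and 18.6 and 8.92 CPM in WT, a ratio of 5.20-fold lower at P10 in KO. Both genes were highest in KO at P6, intermediate in KO at P10 and lowest in the WT libraries. Irf7 fell with day over both genotypes (log2 fold change -1.78, SE 0.29, edgeR adjusted p = 0.0235), and Isg15 did not pass (-1.16, SE 0.31, adjusted p = 0.0692).

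The antiviral effectors followed the same order. Oas1a, which makes the activator of RNase L, measured 49.3 CPM in KO at P6 and 9.13 CPM at P10, with 3.67 and 0.675 CPM in WT, and fell (adjusted p = 0.00237). Ifit3, an RNA-binding effector, measured 72.9 and 14.1 CPM in KO, with 1.05 and 0.675 CPM in WT, and fell (adjusted p = 0.0194). In WT Ifit3 lay far below the 20 CPM minimum on both days, so its pass rests mainly on the KO pair. Without the cell with most UMIs in each library, the log2 ratio of Ifit3 was -2.36 in KO and -0.63 in WT. Its neighbour and near copy Ifit3b measured 25.3 and 5.12 CPM, and the split of UMIs between such copies is uncertain. Bst2, which tethers enveloped viruses to the cell surface, measured 935 and 311 CPM in KO and 130 and 88.6 CPM in WT (adjusted p = 0.0522). Ifitm3, which blocks viral entry at endosomes, measured 2503 and 983 CPM in KO and 411 and 313 CPM in WT (adjusted p = 0.0788). Without Ifitm3 the list still summed to 3845 CPM in KO at P6 and 1624 CPM at P10.

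Regulators of the response were lower at P10 too. Usp18, which removes Isg15 from proteins and dampens the receptor, measured 89.7 and 20.9 CPM in KO and 10.4 and 3.71 CPM in WT, and fell (edgeR adjusted p = 0.00558). Irf9 measured 65.9 and 33.8 CPM in KO. Ube2l6, the conjugating enzyme for Isg15, measured 76.7 and 14.9 CPM in KO and 16.6 and 10.0 CPM in WT, and did not pass (adjusted p = 0.0504). The 2 members that differed least in KO were the RNA sensor Ddx58, at 34.7 and 23.3 CPM, and Ifitm2, at 326 and 345 CPM. Rsad2, an antiviral enzyme, measured 66.6 and 39.5 CPM, a log2 ratio of -0.75, in KO. Over both genotypes 14 of the 34 type I genes tested fell, none rose and 20 did not pass.

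**Figure D2:**
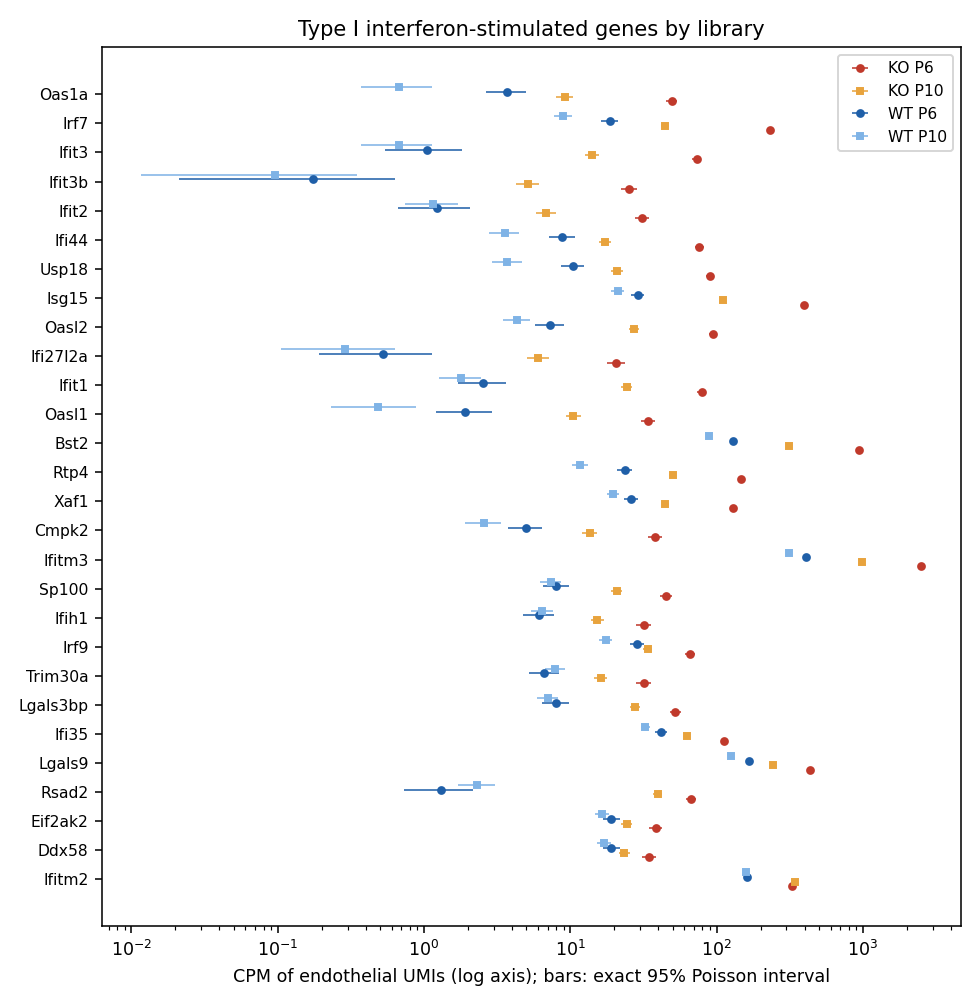
Level of 28 of the 29 measured type I interferon-stimulated genes in CPM (horizontal log axis) in KO at P6 (red circles), KO at P10 (orange squares), WT at P6 (dark blue circles) and WT at P10 (light blue squares), with exact 95% Poisson intervals as bars. Genes are ordered by their log2 ratio in KO, from Oas1a at -2.42 at the top to Ifitm2 at 0.08 at the bottom, and in KO the P6 point lies right of the P10 point for 27 of them.

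The interferon-induced GTPases, which attack vacuoles of intracellular microbes, showed 6 of 9 measured members at least 2-fold lower at P10 in KO and none higher (median log2 ratio -1.33; -0.05 for the same genes in WT). Gbp4 measured 36.1 CPM in KO at P6 and 10.2 CPM at P10, and Irgm1 measured 121 and 39.6 CPM. Igtp measured 54.8 and 15.6 CPM in KO and 8.55 and 4.73 CPM in WT, and was the only one of 13 tested members that fell over both genotypes (edgeR adjusted p = 0.0274). Gbp9 measured 25.7 CPM on both days. Of 15 measured genes of class I antigen presentation and the immunoproteasome, 4 were at least 2-fold lower in KO (Tap1, Psmb8, Psmb9 and H2-Q4), none was higher, and all 15 had a ratio below 0. The median was -0.75 in KO and -0.18 in WT.

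Class I heavy chains showed ratios of opposite sign in the 2 genotypes. H2-K1, a classical heavy chain, measured 390 CPM in KO at P6 and 214 CPM at P10, but 93.7 CPM in WT at P6 and 275 CPM at P10. H2-D1, another classical heavy chain, measured 1236 and 789 CPM in KO and 453 and 802 CPM in WT. At P6 both were higher in KO than in WT, and at P10 H2-K1 was lower in KO than in WT while H2-D1 was near it. Their light chain B2m measured 2838 and 1428 CPM in KO and 844 and 660 CPM in WT, lower at P10 in both. Heavy chain genes share long stretches of sequence, so the division of UMIs among them is uncertain. Tap1, the peptide transporter, measured 104 CPM in KO at P6 and was 3.46-fold lower at P10, with 20.1 and 9.40 CPM in WT, and fell over both genotypes (edgeR adjusted p = 0.0118). The difference of H2-K1 and H2-D1 between genotypes was not tested, since the design has 1 library per genotype and day.

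To see whether few or many cells carried the interferon signal, each endothelial cell was thinned to 2000 UMIs, which left out 28 cells at P6 and 228 at P10, and UMIs of 12 interferon-stimulated markers were counted. In KO the median cell held 4 marker UMIs at P6 and 1 at P10, and the 90th percentile was 10 and 4. Cells without any were 5.19% at P6 and 41.2% at P10. In WT they were 57.1% and 70.2%. The whole distribution in KO at P6 was thus displaced from the other 3 libraries, with 1 broad peak and few cells without a marker. Interferon-high cells, with UMIs of at least 3 of the 12 markers, were 51.6% (exact Clopper-Pearson 95% interval 48.2 to 55.1) at P6 and 11.2% (10.0 to 12.4) at P10, a ratio of 0.217. WT had 2.02% (1.34 to 2.93) and 0.916% (0.614 to 1.31). Without thinning the KO shares were 90.5% and 35.9%. Among the non-endothelial kept cells of the KO libraries, thinned alike, 6 of 78 at P6 (7.69%) and 1 of 45 at P10 (2.22%) were interferon-high. All non-endothelial kept cells, 95 at P6 and 88 at P10, had median depths of 4613 and 2148 UMIs, and those under 2000 UMIs were left out by the thinning. Isg15 alone had a UMI in 46.1% of thinned KO endothelial cells at P6 and 13.2% at P10, and Irf7 in 34.6% and 7.46%.

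**Figure D3:**
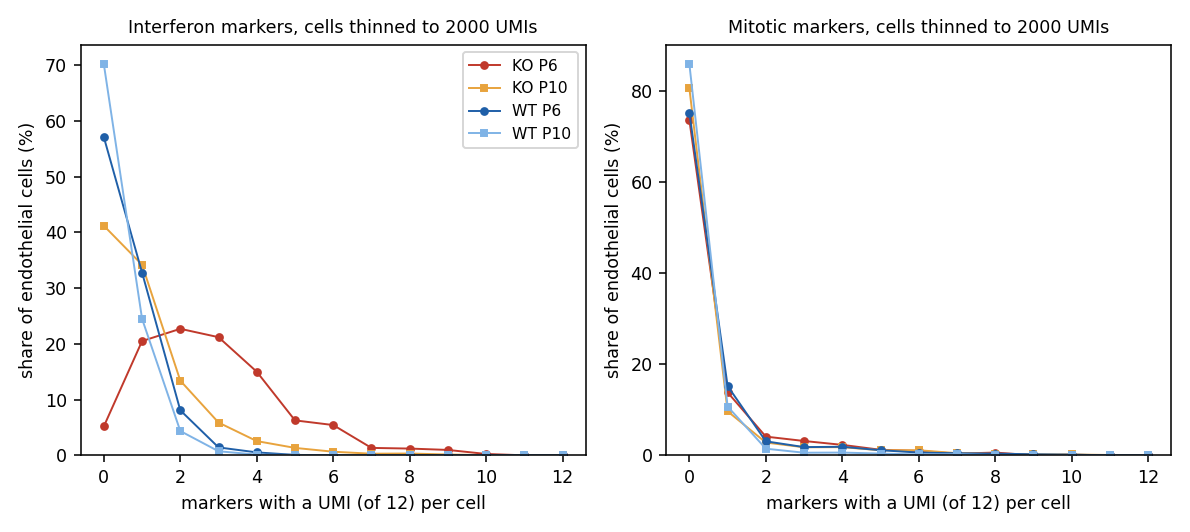
Share of endothelial cells in percent (vertical axis) by the number of 12 markers with a UMI after thinning to 2000 UMIs (horizontal axis), for interferon markers on the left and mitotic markers on the right, 1 line per library. Cells without an interferon marker are 5.19% in KO at P6, 41.2% in KO at P10, 57.1% in WT at P6 and 70.2% in WT at P10, while the 4 lines for mitotic markers lie close together from 73.5% to 85.8% at 0 markers.

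The lower interferon level at P10 was present in each endothelial subset examined. In dividing cells the type I list summed to 5310 CPM at P6 and 1944 CPM at P10 (ratio 0.366, interval 0.352 to 0.381), and in the other cells to 6493 and 2666 CPM (0.411). In cells with arterial markers it summed to 8729 and 3885 CPM (0.445), and in cells with venous markers to 8118 and 3988 CPM (0.491, from 20 and 156 cells). Cells with a UMI of Plvap, the diaphragm protein of leaky endothelium, had 8170 and 4422 CPM (0.541, interval 0.511 to 0.573, from 32 and 75 cells). For the GTPases, Plvap-positive cells had 1154 and 1059 CPM (0.917, interval 0.802 to 1.05), whereas Plvap-negative cells had 604 and 234 CPM (0.388). In Plvap-positive KO cells the GTPases therefore did not differ between the days beyond counting error.

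Chemokines divided into members that were higher at P10 and members that were not. Of 10 measured, 4 were at least 2-fold higher in KO and none lower, with a median log2 ratio of 0.81 in KO and 1.21 in WT. Cxcl2, a neutrophil attractant, measured 137 CPM in KO at P6 and 534 CPM at P10, and 139 and 465 CPM in WT, and rose (log2 fold change 1.90, SE 0.12, edgeR adjusted p = 0.0017). Cxcl1, of the same family, measured 338 and 780 CPM in KO and 362 and 679 CPM in WT, and rose (adjusted p = 0.0093). Cxcl12, the ligand of Cxcr4, measured 163 and 423 CPM in KO and 144 and 483 CPM in WT, and its scavenging receptor Ackr3 measured 4.86 and 20.8 CPM and 5.24 and 33.1 CPM. Both rose (adjusted p = 0.00327 and 0.00279). All 4 were higher at P10 in both genotypes. Ackr3 measured 147 CPM in the non-endothelial cells of KO at P10, above its endothelial level, and the part of RNA from those cells in its value was not tested.

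Cxcl10, an attractant of T cells, measured 101 CPM in KO at P6 and 69.7 CPM at P10, and 16.1 and 36.9 CPM in WT (edgeR adjusted p = 0.638). Ccl5 measured 124 and 102 CPM in KO, and 3.32 and 0.0964 CPM in WT. Ccl2, an attractant of monocytes, measured 31.8 and 51.9 CPM in KO and 7.33 and 17.4 CPM in WT, and rose (adjusted p = 0.0258). Ccl5 was far higher in KO than in WT on both days. Over both genotypes 7 of 15 tested genes of the list rose and none fell. Of the leukocyte adhesion genes, 1 of 9 measured (F11r, 204 and 100 CPM) was at least 2-fold lower. Vcam1, which binds leukocyte integrins, was 1.66-fold higher in KO at P10 (54.8 CPM, with 13.4 CPM in WT), and Icam1 measured 963 and 1411 CPM in KO and 1253 and 1307 CPM in WT.

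Among the 12 genes with the highest ratio in KO, apart from haemoglobin, ribosomal, mitochondrial and sex-linked genes, unnamed gene models and genes far higher in non-endothelial cells, were Nxpe4, Cd14, Pmaip1, Mgll, Gsta4, Snhg12, Stra6, Slc25a33, Eln and Sox18. All 12 were also at least 2-fold higher in WT and rose over both genotypes. Nxpe4 (mm10 chromosome 9, 48162023 to 48400025) measured 0.708 CPM (0.285 to 1.46) in KO at P6 and 60.3 CPM (57.2 to 63.6) at P10, and 0.611 and 72.3 CPM in WT (log2 fold change 6.69, SE 0.20, edgeR adjusted p = 0.00026). It was nearly absent from both P6 libraries and had a UMI in 12.1% of thinned KO cells at P10.

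Stra6, a retinol transporter, measured 17.4 CPM in KO at P6 and 94.8 CPM at P10, and 14.1 and 141 CPM in WT, and rose (edgeR adjusted p = 0.00215). Gsta4, which detoxifies lipid peroxidation products, measured 59.6 and 361 CPM in KO, and Mgll, which hydrolyses monoacylglycerols, 31.2 and 197 CPM. Pmaip1, a proapoptotic BH3-only gene, measured 28.2 and 246 CPM in KO and 23.1 and 369 CPM in WT, and rose (adjusted p = 0.0017). Cd14, a co-receptor for bacterial lipopolysaccharide, measured 1.82 and 29.9 CPM in KO and 1.13 and 26.2 CPM in WT. Eln, which encodes elastin, measured 41.6 and 191 CPM, but 1 cell held 83.0% of its UMIs in KO at P6. Without the cell with most Eln in each library the values were 7.08 and 173 CPM. Its log2 ratio of 2.20 became 4.59 without those cells and 4.78 without dividing cells.

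The 12 genes with the lowest ratio were Mmp9, Ttr, Cap1, Zfp69, Pfkp, Oas1a, Serpina3g, Irf7, Ifit3, Ube2l6, Ifit3b and Snhg9. Mmp9, a gelatinase that cuts basement membrane collagen (chromosome 2, 164940780 to 164955850), measured 21.9 CPM in KO at P6 and 0.469 CPM (0.234 to 0.840) at P10, and 22.9 and 1.45 CPM in WT. It fell (log2 fold change -4.55, SE 0.34, edgeR adjusted p = 0.00238) and came from few cells, with a UMI in 2.53% of thinned KO cells at P6. Without cells that also carried markers of another cell type, its KO log2 ratio was -1.22 in place of -5.22. Cap1, which recycles actin monomers (chromosome 4, 122859047 to 122886056), measured 264 and 22.7 CPM in KO and 235 and 19.7 CPM in WT. Zfp69, a zinc finger gene on the same chromosome (120930137 to 120951699), was 7.59-fold lower at P10 in KO, at 3.16 CPM, and measured 44.5 and 4.87 CPM in WT. Both fell (adjusted p = 0.00026 and 0.0013), and KO and WT were alike in order.

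Pfkp, a phosphofructokinase of glycolysis, measured 88.4 CPM in KO at P6 and was 7.37-fold lower at P10, with 93.0 and 36.0 CPM in WT, and fell (edgeR adjusted p = 0.0225). Among 17 measured genes of glycolysis and hypoxia, Pfkp and Eno1 (579 and 281 CPM in KO) were at least 2-fold lower and none was higher, with a median of -0.00. Ttr, a secreted carrier made by choroid plexus epithelium, measured 28.8 and 1.15 CPM in KO and had no UMI in WT. In KO at P6 its UMIs lay in 16 cells and 48.1% of them in 1 cell, and the 5 choroid plexus markers summed to 33.3 CPM in KO at P6 and 9.35 CPM at P10. Without cells that also carried markers of another cell type, its KO log2 ratio was -1.0 in place of -4.51. Serpina3g, Snhg9 and Ube2l6 were the 3 of these 12 that did not pass the test over both genotypes, and for Ttr the test rests on KO alone.

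The ratios of KO and WT can be set side by side, since the pairs share no library. Over 5539 genes that met the minimum in both, Pearson's r of the log2 ratios was 0.788 across genes, which are not independent replicates and which share the harvest days and any difference between libraries that goes with them. The SD of the ratios was 0.466 in KO and 0.555 in WT. Of the genes past 2-fold at this shared minimum, 77 were higher in both, out of 101 in KO (76.2%) and 154 in WT. Lower in both were 33, which is 50.8% of the 65 in KO and 26.4% of the 125 in WT. At this minimum, no gene was past 2-fold in opposite directions.

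**Figure D4:**
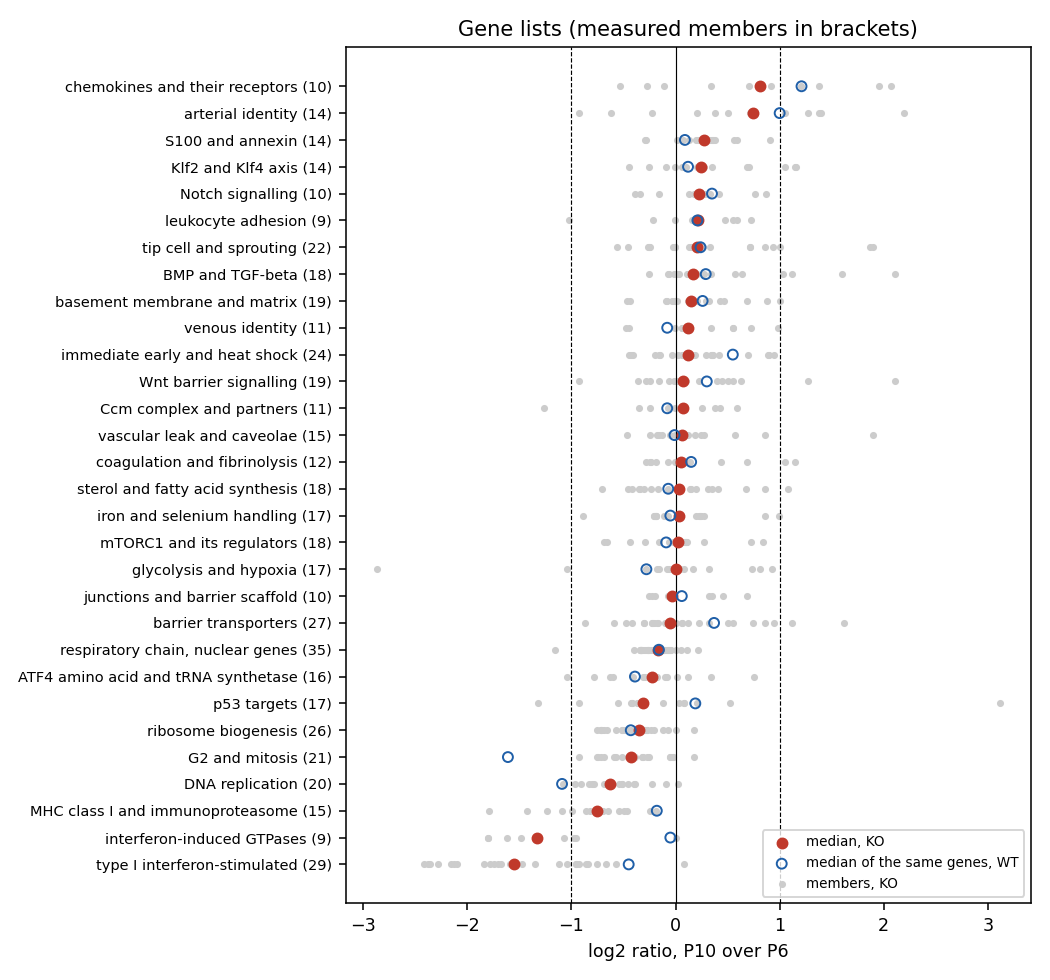
Median log2 ratio of P10 over P6 for each of the 30 gene lists in KO (red points) and of the same genes in WT (open blue circles), with the single measured members in KO in grey, measured members in brackets and dashed lines at 2-fold. The 3 interferon lists at the bottom have KO medians of -0.75 to -1.55 and WT medians nearer to 0, and the mitotic list has a KO median of -0.43 against -1.61 in WT.

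Cell cycle genes had medians below 0 in both genotypes, nearer to 0 in KO than in WT. Of 21 measured genes of G2 and mitosis none was at least 2-fold lower or higher in KO, whereas 18 were at least 2-fold lower in WT, and the KO ratio was above the WT ratio for all 21. The KO median was -0.43. It was -0.03 with each cell thinned to 2000 UMIs and -0.62 without dividing cells. Cdc20, the activator of the anaphase-promoting complex, measured 48.0 CPM in KO at P6 and 46.1 CPM at P10, and 40.1 and 11.7 CPM in WT. Cdca8, of the chromosomal passenger complex, measured 41.7 and 33.6 CPM in KO and 37.6 and 9.11 CPM in WT. The marker of cycling cells Mki67 measured 16.7 and 17.0 CPM in KO and 19.3 and 7.47 CPM in WT. For these 3 genes WT at P10 was the lowest of the 4 libraries. This difference between genotypes was not tested.

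Replication genes were lower in both. Of 20 measured, 1 (Mcm6) was at least 2-fold lower in KO and none higher, with a median of -0.63 in KO and -1.09 in WT. Mcm6, a subunit of the replicative helicase, measured 91.9 and 43.2 CPM in KO and 89.6 and 47.9 CPM in WT, and fell (edgeR adjusted p = 0.00905). Rrm2, which makes deoxynucleotides, measured 85.1 and 54.0 CPM in KO and 50.8 and 16.7 CPM in WT, and fell (adjusted p = 0.0384). Over both genotypes 15 of 30 replication genes and 8 of 30 mitotic genes fell, and none rose. CCAAT, on either strand, was found in the promoter window of 16 of 18 measured mitotic genes (88.9%) and of 43.2% of measured genes. Ribosome biogenesis genes had a median of -0.35 in KO and -0.43 in WT, and none of 26 was past 2-fold.

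Dividing cells, with UMIs of at least 3 of 12 mitotic markers after thinning, were 8.69% (6.86 to 10.8) of KO endothelium at P6 and 7.03% (6.11 to 8.04) at P10, intervals that overlap. In WT they were 6.59% (5.32 to 8.05) and 2.05% (1.59 to 2.61). Thinning to 1000 UMIs gave 3.64% and 3.99% in KO, so the order of the KO days turned with the depth. Without thinning the KO shares were 20.5% and 12.4%. Non-endothelial cells of the KO libraries gave 21.8% (17 of 78) and 8.89% (4 of 45). The share of dividing cells in KO was therefore not distinguishable between the days at this depth, while the 30 mitotic genes summed to 1008 CPM at P6 and 793 CPM at P10.

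**Figure D5:**
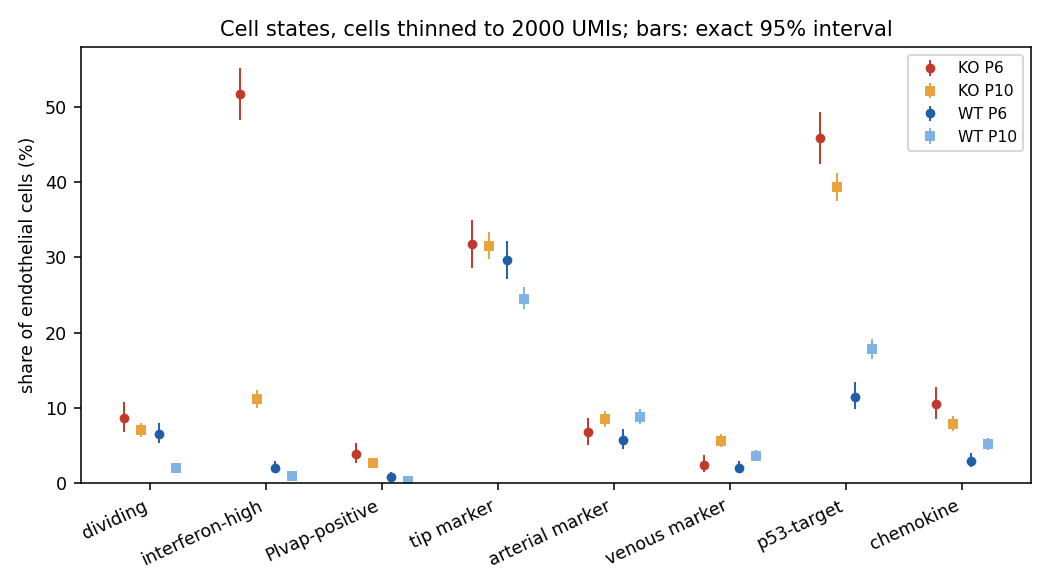
Share of endothelial cells in percent (vertical axis) in 8 marker-defined states after thinning to 2000 UMIs, in KO at P6 and P10 and WT at P6 and P10, with exact 95% intervals as bars. Interferon-high cells are 51.6% and 11.2% in KO and under 3% in WT, and dividing cells are 8.69% and 7.03% in KO and 6.59% and 2.05% in WT.

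Arterial genes were higher at P10. Of 14 measured, 5 were at least 2-fold higher in KO (Eln, Fbln2, Cxcl12, Mgp and Fbln5) and none lower, with a median of 0.74 in KO. In WT the same genes had a median of 1.0, and 7 were at least 2-fold higher. The KO ratio was below the WT ratio for 12 of the 14. Mgp measured 79.7 CPM in the endothelial and 497 CPM in the non-endothelial cells of KO at P10. Over both genotypes 11 of 19 rose. Fbln5, an elastic fibre protein, measured 53.4 and 111 CPM in KO and 33.5 and 93.6 CPM in WT (edgeR adjusted p = 0.00641), and Hey1, a Notch target, 76.4 and 130 CPM in KO and 131 and 206 CPM in WT (adjusted p = 0.0155). Gja4, an arterial connexin, measured 138 and 89.6 CPM in KO, against the direction of most of the list. Edn1, the vasoconstrictor endothelin, measured 226 and 118 CPM in KO and 237 and 241 CPM in WT. Cells with at least 2 of 9 arterial markers were 6.76% (5.14 to 8.68) and 8.53% (7.52 to 9.63), overlapping intervals. Cells with at least 2 of 7 venous markers were 2.41% (1.48 to 3.70) and 5.59% (4.77 to 6.51) when thinned to 2000 UMIs. With thinning to 1000 UMIs they were 0.940% and 2.58%. Without thinning they were 20.9% and 19.8%, but there the median depth differed, at 9067 UMIs at P6 and 6401 at P10. The order of the days thus turned only where depth was not matched. No venous gene of 11 measured was past 2-fold. Car4, a carbonic anhydrase of capillaries and veins, measured 335 and 661 CPM in KO and 637 and 742 CPM in WT.

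Barrier transporters, which carry nutrients and lipids into the brain and drugs out of it, were mostly near their P6 level. Of 27 measured, 2 were at least 2-fold higher and none lower, with a median of -0.05 in KO and 0.37 in WT, and the KO ratio was below the WT ratio for 19. Slco1a4, an organic anion transporter, measured 66.6 CPM in KO at P6 and 205 CPM at P10, and 44.9 and 466 CPM in WT, and rose (log2 fold change 2.54, SE 0.39, edgeR adjusted p = 0.0194). Slc30a1, a zinc exporter, measured 44.2 and 96.2 CPM in KO and 51.0 and 126 CPM in WT, and rose (adjusted p = 0.00379). Mfsd2a, the lysophospholipid transporter whose promoter drives the Cre, measured 456 CPM (443 to 470) in KO at P6 and 250 CPM (243 to 256) at P10, and 592 and 767 CPM in WT. It was lowest in KO at P10, with a log2 ratio of -0.87 in KO and 0.37 in WT (adjusted p = 0.683). The glucose transporter Slc2a1 measured 964 and 1048 CPM in KO. Of 10 measured junction genes none was past 2-fold.

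Genes of Wnt signalling in the barrier had a median of 0.07 in KO, with Sox18 and Nkd1 of 19 at least 2-fold higher and none lower. Sox18, a transcription factor of vessel development, measured 31.8 and 138 CPM in KO and 35.6 and 183 CPM in WT, and rose (edgeR adjusted p = 0.00114). Nkd1, a feedback inhibitor of Wnt, measured 80.8 and 195 CPM in KO and 135 and 231 CPM in WT, and rose (adjusted p = 0.0141). Apcdd1, another Wnt target, measured 312 and 244 CPM in KO and 453 and 529 CPM in WT. Fgfbp1, which releases growth factors from matrix, measured 63.7 and 33.5 CPM in KO and 22.6 and 30.4 CPM in WT.

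The factors Klf4 and Klf2 and some of their targets were higher at P10 in both genotypes. Klf4 measured 649 CPM in KO at P6 and 1447 CPM at P10, and 533 and 1108 CPM in WT, and rose (edgeR adjusted p = 0.00696). Klf2 measured 1367 and 2203 CPM in KO and 885 and 1206 CPM in WT, and rose (adjusted p = 0.0469). The thrombin-binding receptor Thbd, which both factors induce, measured 39.2 and 86.9 CPM in KO and 30.4 and 48.3 CPM in WT, and Procr, its partner in protein C activation, 57.1 and 119 CPM and 52.5 and 90.9 CPM. Both rose (adjusted p = 0.0185 and 0.0094). Of 14 measured genes of the Klf2 and Klf4 list, 3 were at least 2-fold higher in KO (Klf4, Thbd and Procr) and none lower. Plvap measured 35.3 and 42.7 CPM in KO and 5.15 and 1.88 CPM in WT, with Plvap-positive cells at 3.86% (2.65 to 5.41) and 2.69% (2.12 to 3.36) of KO endothelium; level and share differed in direction, so no order of the days is read from either. The S100 and annexin genes had a median of 0.27, and none of 14 was past 2-fold. S100a10 measured 102 and 150 CPM in KO and 10.6 and 14.8 CPM in WT, and rose (adjusted p = 0.0334).

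Sprouting genes included 3 of 22 that were at least 2-fold higher in KO and none lower (median 0.21). Esm1, a secreted tip cell proteoglycan, measured 16.7 and 62.4 CPM in KO and 2.97 and 14.8 CPM in WT, and rose (edgeR adjusted p = 0.00256). Ramp3, a subunit of adrenomedullin receptors, measured 12.3 and 45.5 CPM in KO and 3.40 and 12.3 CPM in WT, and the third was the matrix gene Nid2. Angpt2, the Tie2 ligand that destabilizes vessels, measured 121 and 220 CPM in KO and 87.6 and 176 CPM in WT, and rose (adjusted p = 0.00809). Pgf, a ligand of Flt1, measured 19.9 and 38.3 CPM in KO but 24.9 and 12.6 CPM in WT (adjusted p = 0.958). Cells with at least 2 of 7 tip markers were 31.7% and 31.5% of KO endothelium.

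In the BMP and TGF-beta list 4 of 18 measured genes were at least 2-fold higher in KO and none lower. Ltbp4, which anchors latent TGF-beta in matrix, measured 27.9 and 121 CPM in KO and 17.3 and 143 CPM in WT, and rose (edgeR adjusted p = 0.00341). Bmp2 measured 6.88 and 21.1 CPM in KO and 4.54 and 7.71 CPM in WT, and rose (adjusted p = 0.0327). Smad6, an inhibitor of BMP signalling, and Tgfb1 also rose (adjusted p = 0.0111 and 0.00809). Among p53 targets, 1 of 17 was at least 2-fold higher (Pmaip1) and 1 lower (Bax, 348 and 139 CPM in KO and 158 and 112 CPM in WT). Phlda3, an inhibitor of Akt, measured 149 and 137 CPM in KO and 4.63 and 5.40 CPM in WT, and Gdf15 65.6 and 49.0 CPM and 2.71 and 5.50 CPM, high in KO on both days. Cells with at least 2 of 7 p53 markers were 45.8% and 39.3% of KO endothelium, and 11.5% and 17.8% of WT endothelium. The summed level of the p53 list, Pmaip1 included, was 3794 and 3882 CPM in KO and 2366 and 3516 CPM in WT. The list's median log2 ratio was -0.31 in KO and 0.19 in WT, and the KO ratio was below the WT ratio for 15 of 17.

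Most partners of Pdcd10 differed little between the days, as did most measured genes. Of 11 measured genes of the Ccm complex and its partners, Stk25, a kinase that binds Pdcd10, was at least 2-fold lower, at 174 CPM in KO at P6 and 72.3 CPM at P10, against 208 and 133 CPM in WT, and fell (edgeR adjusted p = 0.0289). Krit1 measured 51.9 and 62.0 CPM and Ccm2 50.6 and 42.7 CPM in KO. Heg1, the receptor that holds Krit1 at junctions, measured 78.7 and 118 CPM in KO and rose (adjusted p = 0.0187). Of 18 measured genes of mTORC1 and its regulators none was past 2-fold, with a median of 0.02. None of the 17 iron and selenium genes, 24 immediate early and heat shock genes or 10 Notch genes was past 2-fold either. Of all measured genes only 1.93% were higher and 1.83% lower past 2-fold. A list of this size with no gene past 2-fold is therefore near the share of all genes. The same holds for the ribosome biogenesis, venous, junction and S100 lists above. In the remaining lists the genes past 2-fold in KO were Nid2 among 19 basement membrane genes, Thbd and Procr among 12 coagulation genes, Sc5d (11.6 and 24.8 CPM) among 18 sterol genes, Phgdh (31.9 and 15.4 CPM) among 16 genes of the ATF4 list and Atp5k (356 and 159 CPM in KO, 274 and 260 CPM in WT) among 35 respiratory chain genes.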

How the data were processed

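Single-cell 3′ libraries were made from sorted cells with 10x Genomics chemistry, per the labels' protocols. The submitters' processing notes name Cell Ranger 6.0.1 and the genome build mm10. The deposited matrices hold raw UMI counts per gene (32285) and cell. No further filtering by the authors is given in the sources used here. Cells were filtered, called endothelial, and summed as stated; each library's counts were scaled to 1000000. Analyses used Python 3.11.15, scipy 1.17.1, scanpy 1.11.5 (with Scrublet) and R 4.3.3. The test of harvest day used edgeR 4.0.16 (TMM scaling, filterByExpr, design of genotype plus day, adjusted p under 0.05); DESeq2 1.42.0 was an alternative. On simulated counts the edgeR test recovered 21%, 76% and 99% of 200 genes changed 1.5-, 2- and 4-fold. False calls were 2, 11 and 5 among 12936, 12944 and 12960 genes. The simulated counts took their spread from the same fit and held no difference between genotypes or single libraries. The false calls therefore do not measure errors from such differences in the real libraries.

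The named genes are the 12 highest and 12 lowest log2 ratios in KO among measured genes. Left out of that ranking were mitochondrial, ribosomal, haemoglobin and sex-linked genes, unnamed gene models, the 6 rule genes, and genes whose endothelial CPM in the library where they were higher was under their non-endothelial CPM divided by 5. Some genes that meet these rules are not reported here. Members of 30 gene lists, their extremes and textbook members are also named. Of 645 genes on the lists, 5 had no entry in the files. The comparison, the members and the lists were chosen with earlier results of these data known. Scrublet's own threshold marked 2 cells in KO at P6 and 0 in the other libraries, so no doublets were removed. Promoter sequences are RefSeq's (GRCm38.p6), matched by symbol. Nothing says that each library came from 1 animal or several.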

Additional observations from a re-analysis of the deposited data

Results flagged for a closer look

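Serpina3g, a serine protease inhibitor, had a log2 ratio of -2.40 in KO (49.1 CPM at P6 and 9.18 CPM at P10) and lay past 2-fold the other way in WT (4.19 and 12.9 CPM, log2 ratio 1.60). In KO at P6 1 cell held 29.5% of its UMIs, and without the cell with most UMIs in each library the KO ratio was -2.05. With each cell thinned to 2000 UMIs it was -1.20. Snhg9, a small nucleolar RNA host gene, had a log2 ratio of -2.26 in KO (34.4 and 7.08 CPM) and 1.09 in WT (7.16 and 15.3 CPM). Iigp1, an interferon-induced GTPase, had a log2 ratio of -1.08 in KO (47.6 and 22.5 CPM) and 2.26 in WT (1.66 and 8.39 CPM). In each case the single KO and WT pairs moved in opposite directions, and the WT levels were below 20 CPM on both days. The differences between genotypes were not tested, since each genotype and day had 1 library.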

How the results depend on the processing

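Within KO no paired analysis was possible, because each day had 1 library and the labels give no further replicate to pair. The genotype term is the only block in the test of harvest day. The number of genes at least 2-fold higher and lower in KO depended on the minimum level and the fold: 220 and 260 with a minimum of 5 CPM and 10 UMIs, 1265 and 1280 with none, 384 and 365 at 1.5-fold, and 35 and 43 at 3-fold. The ratio of interferon-high shares was 0.397 without thinning, 0.331 with 1 marker fewer and 0.175 with 1 marker more, below 1 in each. The ratio of venous-marker shares turned to 0.947 without thinning.

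In the test of harvest day, the counts that rose and fell were 1542 and 1096 with no filter on low counts, 403 and 239 with DESeq2, and 1039 and 744 without dividing cells; 678 fell without cells with markers of another type. Without the genotype term 2 and 1 genes passed (1687 at an unadjusted p under 0.05). Leaving out 1 library without that term gave 0 to 97 risen and 0 to 41 fallen genes: 0 and 1 without KO at P6 (933 unadjusted), 97 and 41 without KO at P10, 0 and 0 without WT at P6 (980 unadjusted), and 11 and 3 without WT at P10.

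No named gene changed direction under the alternatives run, but some moved by over 1.5 times. Without cells with markers of another cell type Mmp9 moved from -5.22 to -1.22 and Ttr from -4.51 to -1.0. With each cell thinned to 2000 UMIs Nxpe4 moved from 6.19 to 4.81, Slc25a33 from 2.43 to 1.83, Eln from 2.20 to 3.25 and Serpina3g from -2.40 to -1.20. The medians of 5 lists near 0 (barrier transporters, junctions, coagulation, sterol synthesis and the Ccm complex) changed sign under some settings. They lay between -0.13 and 0.16 except for 0.24 in the Ccm complex with no minimum. The glycolysis and hypoxia median, -0.0 in the main setting, also lay on both sides of 0, from -0.03 with no minimum to 0.12. The type I interferon median stayed between -1.57 and -1.46.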

Other observations

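In some genes the KO and WT levels moved apart or past each other. Gpi1, a glycolytic isomerase, measured 244 and 465 CPM in KO and 469 and 361 CPM in WT, and Hmox1, which degrades haem, 191 and 379 CPM in KO and 213 and 267 CPM in WT. Neither passed edgeR's test over both genotypes (adjusted p = 0.512 and 0.056).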
